A study of Mus musculus with 4 samples.

Results

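The 10 genes described here encode the enzymes that write, maintain and remove DNA methylation and the core of Polycomb repressive complex 2 (PRC2). They were taken by gene symbol and role, without a threshold on a measured value, but with earlier results of these data known, and all 10 were found among the 39179 genes listed and among the 11483 genes tested. RNA-seq was performed on 4 libraries of the mouse melanoma cell line B16F1, 2 of parental B16F1 control cells and 2 of tumor repopulating cells (TRCs), and the libraries of each group carry the replicate numbers 1 and 3. The control cells were the established line as cultured on rigid dishes. The TRCs were the cells that survived as spheroids in soft 3D fibrin gels of 90 Pa stiffness and were isolated on day 5, so that selection, gel and spheroid growth differ from the control together and cannot be told apart. Both groups come from this 1 line and neither carries a transgene or drug treatment in the labels. The sources do not say whether the 2 libraries of a group came from separate cultures, and the p-values measure only the spread between these libraries, which may be technical.

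DNA methylation is set on cytosines that precede guanines. DNMT3A and DNMT3B place new marks, while DNMT1 copies them onto the new strand after DNA replication, guided to half-methylated sites by UHRF1. The TET dioxygenases oxidise methylcytosine, which starts its removal, and they depend on oxygen, iron and 2-oxoglutarate. PRC2 trimethylates histone H3 at the lysine known as H3K27 through EZH2 or its relative EZH1, with SUZ12 and EED as the other core subunits, and marks developmental genes that are kept silent.

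Each library held between 35948295 and 43511554 counts on genes. At that depth 3 counts, taken as the smallest detectable number, correspond to 0.0689 to 0.0835 CPM (counts scaled to an equal library total), for counting error only. The melanocyte markers were abundant in all libraries, with all 7 of 7 tested and a summed level of 15711 to 18915 CPM in control cells and 23969 to 26669 CPM in TRCs. All 7 had fitted log2 fold changes above 0, from 0.122 to 1.14 with a median of 0.413. Of these only *Dct*, a pigment enzyme gene, was called (log2 fold change 1.08, FDR = 0.000307, with 0.0704 in edgeR's quasi-likelihood test). Leukocyte markers summed to at most 4.97 CPM with *Ptprc* at 0 counts in each library, endothelial and epithelial markers summed to at most 0.255 CPM with *Cdh5* and *Krt5* at 0, and fibroblast markers summed to 9.83 to 11.4 CPM in control cells and 3.10 to 5.68 CPM in TRCs. Among the fibroblast markers *Col1a2* fell (log2 fold change −2.52, FDR = 4.15e-06). The shift in these small sums was not tested for a part in the results below.

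Of the 10 genes, *Tet1* rose in TRCs and *Uhrf1*, *Dnmt1* and *Ezh2* fell, at a Benjamini-Hochberg false discovery rate (FDR) under 0.05 in edgeR's exact test over all genes tested. These 4 of 10 calls stand against 15.9% of all genes tested that were called, 8.81% higher and 7.05% lower. For 9 of the 10 genes the libraries of the groups did not overlap, which held for 60.6% of all genes tested, so that separation alone says little about these genes. Values are CPM normalized by the trimmed mean of M values (TMM), and each log2 fold change is given with a standard error (SE) taken from DESeq2. In bulk RNA, fewer cells that express a gene and less RNA per cell cannot be told apart.

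**Figure D1:**
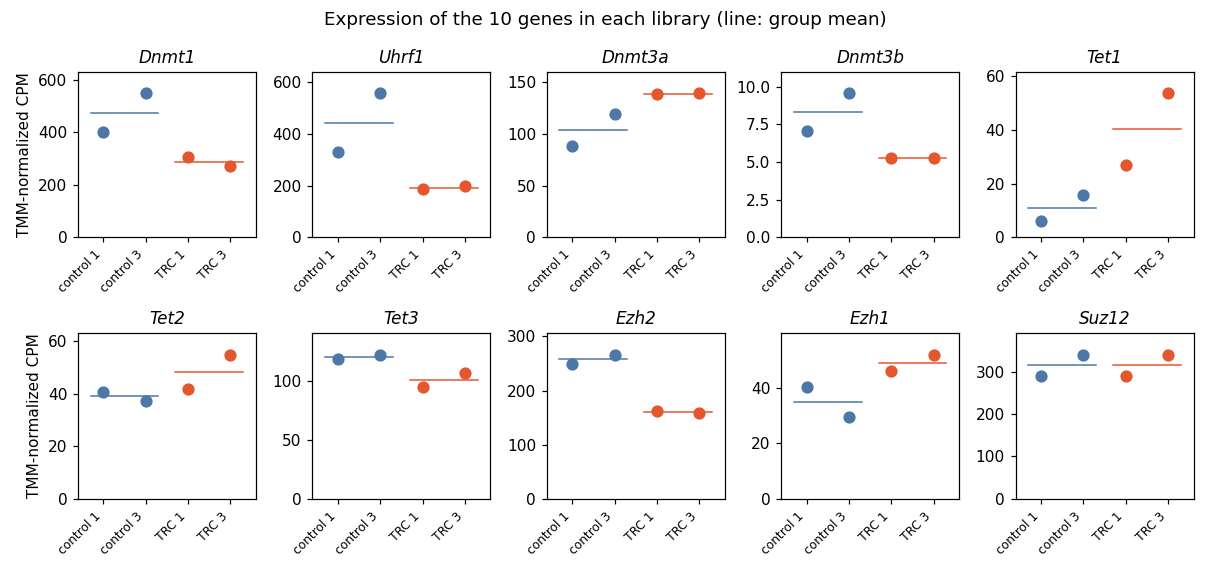
TMM-normalized CPM (y axis, from 0, scaled per gene) of the 10 genes in the 2 control libraries (blue) and the 2 TRC libraries (orange), with a line at each group mean. *Uhrf1*, *Dnmt1* and *Ezh2* lie lower and *Tet1* higher in both TRC libraries, while *Suz12* lies at the same pair of levels in both groups.

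**Figure D2:**
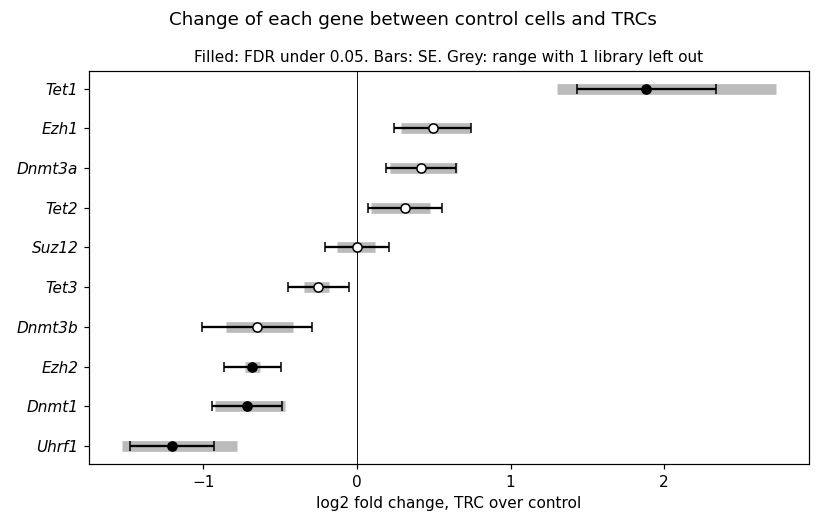
Log2 fold change of TRCs over control cells for each gene (points, filled where the FDR is under 0.05) with its SE (bars) and the range over the fits that leave out 1 library (grey). The values run from −1.21 for *Uhrf1* to 1.88 for *Tet1*, and only the grey range of *Suz12* crosses 0.

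To compare the genes with each other, CPM was divided by the length of the merged exons in kilobases (RPKM). Merged exons span all annotated transcripts of a gene, so that orders and shares between genes depend on this length. It was 4259 bases for *Uhrf1* and 7377 bases for *Dnmt1*. By CPM, *Uhrf1* had 331 and *Dnmt1* 401 in control replicate 1, and they had 556 and 548 in control replicate 3. In control cells *Uhrf1* had the highest level per length, with 77.8 and 131 RPKM in replicates 1 and 3, followed by *Dnmt1* with 54.3 and 74.2, *Suz12* with 58.8 and 68.7 and *Ezh2* with 37.3 and 39.9. *Dnmt1* and *Suz12* overlapped and have no order. The remaining genes lay far below, from *Tet3* with 7.10 and 7.33 RPKM down to *Tet1* with 0.393 and 1.02 RPKM, and among them *Dnmt3a* overlapped with *Ezh1* and with *Tet3*. In TRCs *Suz12* was highest with 58.5 and 68.8 RPKM, above *Uhrf1* with 43.7 and 46.6, *Dnmt1* with 41.5 and 36.9 and *Ezh2* with 24.4 and 23.7 RPKM. In the lower range *Dnmt3a* came first with 8.28 and 8.33 RPKM, *Ezh1* and *Tet3* overlapped, and so did *Tet1* and *Tet2*. *Tet1*, the lowest of the 10 in control cells, lay above *Dnmt3b* in both TRC libraries.

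The maintenance pair fell together. *Uhrf1* (ENSMUSG00000001228, GRCm38 chromosome 17 from 56303321 to 56323486, plus strand), whose product reads half-methylated DNA and recruits DNMT1, had 331 and 556 CPM in control replicates 1 and 3 and 186 and 199 CPM in TRC replicates 1 and 3. Both TRC libraries lay below the lower control library, and the control libraries differed by more than the TRC libraries did. Group means were 444 ± 159 CPM in control cells and 192 ± 8.67 CPM in TRCs (SD, n = 2 each), and *Uhrf1* fell by 1.21 on the log2 scale (SE 0.27, FDR = 0.000326). Without control replicate 3, the higher of the control libraries, the log2 fold change was −0.78 and the FDR was 0.0505.

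*Dnmt1* (ENSMUSG00000004099, chromosome 9 from 20907209 to 20959888, minus strand), the maintenance methyltransferase, had 401 and 548 CPM in control cells and 306 and 272 CPM in TRCs. The groups did not overlap, and as with *Uhrf1* control replicate 3 was the highest library. *Dnmt1* fell by 0.71 on the log2 scale (SE 0.23, FDR = 0.0299). It was smaller than that of *Uhrf1*, and within each library the ratio of *Uhrf1* to *Dnmt1* per kilobase was 1.43 and 1.76 in control cells and 1.05 and 1.26 in TRCs, which did not overlap (log2 difference −0.46). An exact two-sided permutation test of 2 against 2 libraries gave p = 0.333, the smallest p this design allows. The call of *Dnmt1* was kept without control replicate 1 (FDR 0.00862) and lost with each of the other libraries left out, with an FDR of 0.369 without control replicate 3, 0.127 without TRC replicate 1 and 0.250 without TRC replicate 3, and of 0.0751 in edgeR's quasi-likelihood test.

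Of 10 partners and regulators of DNA methylation, 8 were tested and 2 fell, with 0 higher and a median log2 fold change of −0.31, against 0.00 over all genes tested. Among all genes tested 7.05% fell and 8.81% rose. The 2 genes of the list that fell encode parts of the remodelling complex that opens nucleosomes for methylation, in which CDCA7 recruits the HELLS ATPase. *Cdca7* had 59.1 and 68.5 CPM in control cells and 17.0 and 22.1 CPM in TRCs, and fell by 1.71 on the log2 scale (SE 0.25, FDR = 2.09e-09). *Hells* had 206 and 232 CPM in control cells and 120 and 97.2 CPM in TRCs, and fell by 1.01 on the log2 scale (SE 0.21, FDR = 0.000475, and 0.0584 without TRC replicate 3). The fall of *Cdca7* was called under all 11 alternatives. *Uhrf2*, the relative of *Uhrf1*, had 112 and 95.8 CPM in control cells and 106 and 99.8 CPM in TRCs (FDR = 0.981), and *Dnmt3l*, the catalytically inactive cofactor of the de novo enzymes, had 1 count in the 4 libraries together.

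For the de novo enzymes no change passed the test. *Dnmt3a* (ENSMUSG00000020661, chromosome 12 from 3806007 to 3914443, plus strand) had 87.9 and 119 CPM in control cells and 138 and 139 CPM in TRCs. The TRC libraries were nearly equal and above both control libraries, with 0.42 on the log2 scale (SE 0.23, FDR = 0.244). *Dnmt3b* (ENSMUSG00000027478, chromosome 2 from 153649450 to 153687730, plus strand) had 7.04 and 9.55 CPM in control cells and 5.29 and 5.26 CPM in TRCs, with −0.65 on the log2 scale (SE 0.36, FDR = 0.291). The fitted values of the pair pointed in opposite directions, and their ratio within a library, which does not depend on the normalization between libraries, was similar within each group. *Dnmt3a* to *Dnmt3b* per kilobase was 3.83 in each control library and 7.99 and 8.08 in TRCs, a log2 difference of 1.07 (exact permutation test, p = 0.333, the smallest possible). *Dnmt1* made up 89.1% and 89.2% of the summed RPKM of the 3 methyltransferase genes in control cells and 81.7% and 79.7% in TRCs, and the share of *Dnmt3a* was 8.65% and 8.61% in control cells and 16.3% and 18.03% in TRCs.

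**Figure D3:**
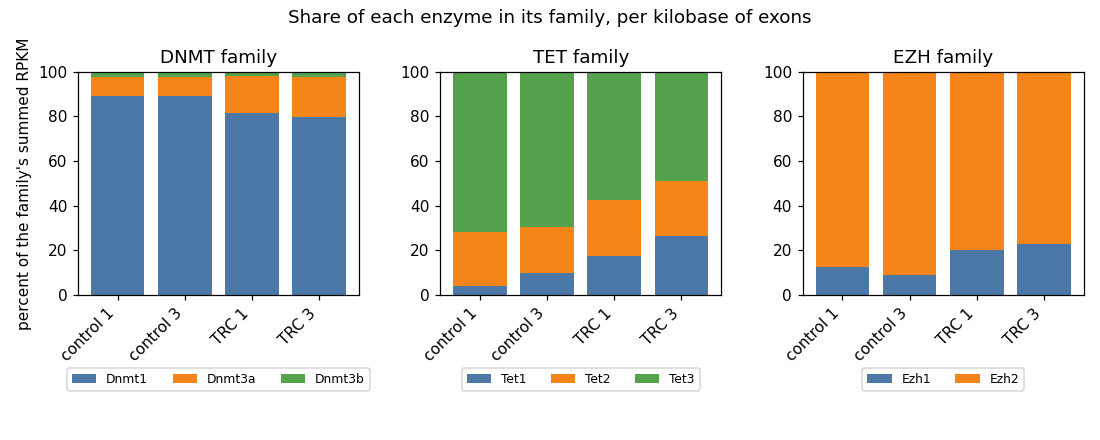
Share of each gene in the summed RPKM of its family (y axis, percent) in each library, for the DNA methyltransferases, the TET enzymes and the EZH pair. *Dnmt3a*, *Tet1* and *Ezh1* take larger shares in both TRC libraries than in either control library.

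*Tet1* (ENSMUSG00000047146, chromosome 10 from 62804570 to 62908996, minus strand), the TET enzyme best known from pluripotent stem cells, had 6.07 and 15.8 CPM in control replicates 1 and 3 and 27.0 and 53.5 CPM in TRC replicates 1 and 3. These values rest on 270 and 556 counts in control cells and 1121 and 2226 counts in TRCs. The lower TRC library lay above the higher control library, but replicate 3 was 2.59 times replicate 1 in control cells and 1.98 times in TRCs. Group means were 10.9 ± 6.85 CPM in control cells and 40.2 ± 18.8 CPM in TRCs (SD, n = 2 each), and *Tet1* rose 3.69-fold, or by 1.88 on the log2 scale (SE 0.45, FDR = 0.000558). Without TRC replicate 3 the log2 fold change was 1.302 and the FDR was 0.120, without control replicate 1 it was 1.35 with an FDR of 0.0151, and without control replicate 3 it was 2.73. The summed level of 14 genes of the response to low oxygen was 2625 and 3049 CPM in control replicates 1 and 3 and 7950 and 15704 CPM in TRC replicates 1 and 3, so that TRC replicate 3 was the highest library in both measures. Their part in the rise of *Tet1* was not tested.

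For the other TET genes no change passed the test. *Tet2* (ENSMUSG00000040943, chromosome 3 from 133463679 to 133545139, minus strand) had 40.6 and 37.3 CPM in control cells and 41.8 and 54.9 CPM in TRCs (log2 fold change 0.31, SE 0.24, FDR = 0.427). *Tet3* (ENSMUSG00000034832, chromosome 6 from 83362373 to 83459084, minus strand) had 118 and 122 CPM in control cells and 95.0 and 107 CPM in TRCs (log2 fold change −0.25, SE 0.20, FDR = 0.495). *Tet3* had the most RNA per length in every library, with 69.4% to 71.7% of the summed RPKM of the family in control cells and 48.9% to 57.4% in TRCs. The share of *Tet1* was 3.97% and 9.65% in control cells and 17.6% and 26.4% in TRCs. The share of *Tet2* was 24.3% and 21.0% in control cells and 25.0% and 24.8% in TRCs. The shares were not tested. The family's summed RPKM was 9.89 and 10.6 in control cells and 9.92 and 13.1 in TRCs, so that the groups overlapped in total TET RNA.

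Among 13 genes for partners of the TET enzymes and for the removal of oxidised cytosine, 12 were tested and 1 rose, with 0 lower and a median log2 fold change of 0.39. Over all genes tested 8.81% rose and 7.05% fell, and the list was not tested against these shares. Without control replicate 1 the list had 5 calls, and without control replicate 3, without TRC replicate 3 or with scaling by library size only it had 2 calls each. The gene that rose was *Cxxc5*, whose product has a CXXC domain that binds unmethylated CpG and has been tied to TET2. *Cxxc5* had 12.6 and 9.01 CPM in control cells and 44.0 and 62.3 CPM in TRCs (log2 fold change 2.30, SE 0.29, FDR = 2.96e-12). It was called under all 11 alternatives. *Tdg*, the glycosylase that excises the oxidised bases, had 72.5 and 92.8 CPM in control cells and 46.5 and 60.1 CPM in TRCs. The difference did not pass the test (log2 fold change −0.63, FDR = 0.0541). *Neil1* and *Neil2* of the same list lay higher in both TRC libraries and were not called (log2 fold change 1.13 and 0.98, FDR = 0.114 and 0.0855). *Tdg*, *Neil1* and *Neil2* are named after their values were seen. Of the 12 genes tested, 8 had fitted values above 0 and 4 below.

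Of the PRC2 core, *Ezh2* fell and *Suz12* was not called. *Ezh2* (ENSMUSG00000029687, chromosome 6 from 47530139 to 47595341, minus strand), the methyltransferase of dividing cells, had 249 and 266 CPM in control cells and 163 and 159 CPM in TRCs. Replicates lay close together in both groups, with group means of 258 ± 12.1 CPM in control cells and 161 ± 2.91 CPM in TRCs (SD, n = 2 each), and *Ezh2* fell by 0.68 on the log2 scale (SE 0.19, FDR = 0.0213). When 1 library was left out, the log2 fold change ranged from −0.73 to −0.63, while the FDR was 0.145 without control replicate 3, 0.155 without TRC replicate 1 and 0.181 without TRC replicate 3. *Suz12* (ENSMUSG00000017548, chromosome 11 from 79993106 to 80034123, plus strand), the subunit that holds the complex together, had 291 and 340 CPM in control cells and 289 and 340 CPM in TRCs. Its log2 fold change was 0.00 with an SE of 0.21 (FDR = 0.9998), and the ratio of *Ezh2* to *Suz12* per kilobase was 0.635 and 0.580 in control cells and 0.416 and 0.345 in TRCs.

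*Ezh1* (ENSMUSG00000006920, chromosome 11 from 101191115 to 101226463, minus strand), the weaker methyltransferase that is found also in resting cells, had 40.3 and 29.5 CPM in control cells and 46.1 and 52.1 CPM in TRCs. Both TRC libraries were higher, but the change did not pass the test (log2 fold change 0.49, SE 0.25, FDR = 0.175). The ratio of *Ezh2* to *Ezh1* per kilobase was 6.89 and 10.1 in control cells and 3.93 and 3.39 in TRCs, a log2 difference of −1.19 (exact permutation test, p = 0.333, the smallest possible). *Ezh2* remained the more abundant of the pair in every library, with 77.2% to 79.7% of their summed RPKM in TRCs.

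Of 11 other PRC2 subunits tested, 1 rose, 1 fell and 9 did not pass the test, with a median log2 fold change of −0.12. Over all genes tested 8.81% rose and 7.05% fell, and these counts were not tested against those shares. *Jarid2*, an accessory subunit that helps to bring PRC2 to its targets, had 44.4 and 46.1 CPM in control cells and 93.0 and 96.9 CPM in TRCs, and rose by 1.07 on the log2 scale (SE 0.20, FDR = 5.27e-05), a call made under all 11 alternatives. *Phf19*, one of the Polycomb-like subunits of the alternative form of the complex, had 19.9 and 18.9 CPM in control cells and 5.41 and 9.06 CPM in TRCs (log2 fold change −1.42, SE 0.33, FDR = 0.00213, and 0.135 without TRC replicate 1). The pair thus moved in opposite directions. *Eed*, the subunit that reads the mark, had 52.8 and 59.5 CPM in control cells and 48.6 and 44.4 CPM in TRCs (FDR = 0.462).

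Genes of DNA synthesis fell alongside *Uhrf1*, *Dnmt1* and *Ezh2*. Of 24 S phase and E2F target genes, all tested, 17 fell and 0 rose, against 7.05% and 8.81% of all genes tested. The list's median log2 fold change was −0.86, with *Cdt1*, an origin licensing factor, at −1.33 and *Mcm10*, a replication initiation factor, at −1.15. The count depends on the library set and the test, with 3 genes called without control replicate 3, 4 without TRC replicate 1, 7 without TRC replicate 3 and 9 in edgeR's quasi-likelihood test. The G2 and mitosis list had 3 calls with scaling by library size only and in DESeq2's Wald test, and 2 without control replicate 1. Of its 16 genes 1 fell, *Birc5*, with a median of −0.38 (log2 fold change −0.69, FDR = 0.0357, and 0.341 without control replicate 3, 0.334 without TRC replicate 1 and 0.0992 without TRC replicate 3). *Pcna*, the clamp that also anchors DNMT1 at the fork, had a log2 fold change of −0.64 (FDR = 0.0804), and *Mki67*, a marker of cycling cells, had 445 and 496 CPM in control cells and 545 and 280 CPM in TRCs, which overlapped (FDR = 0.737).

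Among the 171 genes of the lists that were tested, the profile nearest to that of *Dnmt1* was that of *Slbp*, which binds histone mRNA in S phase, at a Euclidean distance of 0.137 between log2 values centred over the 4 libraries. For *Ezh2* it was *Rfc4*, a clamp loader subunit, at 0.0623, and both of these neighbours are on the S phase list. For *Tet1* it was *Slc2a1*, the glucose transporter gene of the low oxygen list, at the larger distance of 0.403. The distances rest on 4 libraries and are a description. Of the 47 genes of the lists that were called, 17 were S phase genes that fell and 13 were low oxygen genes that rose. A neighbour on these lists was therefore likely beforehand for a member that fell or rose.

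**Figure D4:**
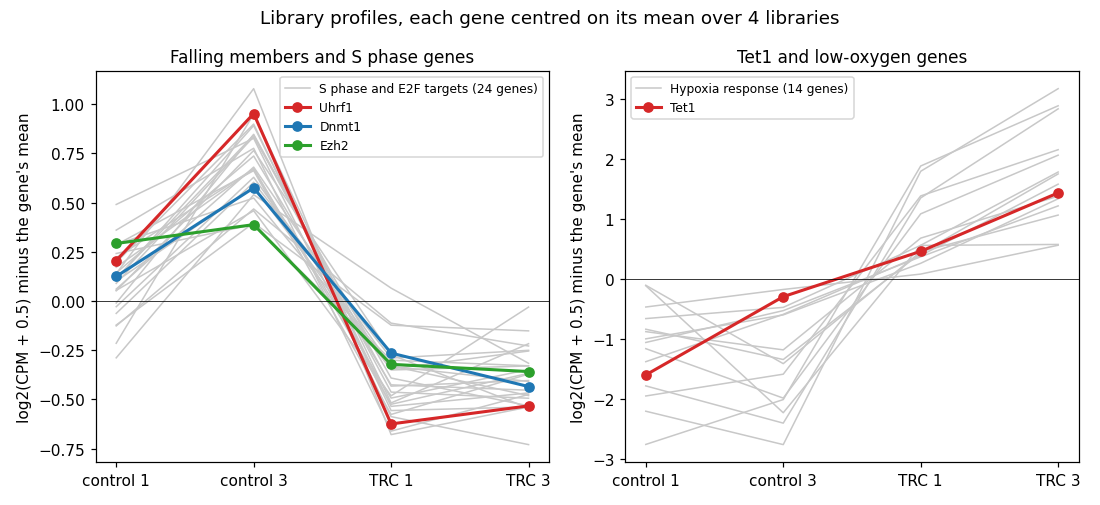
Log2(CPM + 0.5) of each gene minus its mean over the 4 libraries (y axis) by library, for *Uhrf1*, *Dnmt1* and *Ezh2* over the 24 S phase genes (left, grey) and for *Tet1* over the 14 genes of the response to low oxygen (right, grey). The 3 falling genes are highest in control replicate 3, as the summed level of the S phase genes is, though *Ezh2* only slightly. It had 249 and 266 CPM in control replicates 1 and 3, where the S phase sum was 3879 and 5997 CPM. *Tet1* is lowest in control replicate 1 and highest in TRC replicate 3.

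Set against the S phase list of the same library, the groups overlapped for *Dnmt1* and *Ezh2* but for no other of the 10 genes. The summed level of the 24 genes was 3879 and 5997 CPM in control cells and 2868 and 2804 CPM in TRCs. *Dnmt1* amounted to 10.3% and 9.13% of that sum in control cells and 10.7% and 9.70% in TRCs, and *Ezh2* to 6.42% and 4.44% in control cells and 5.67% and 5.65% in TRCs. *Ezh2* itself had 249 and 266 CPM in control replicates 1 and 3, so that its overlap rests on the spread of the sum between these libraries. As the sum was lower in TRCs, *Suz12*, which was not called, took 7.49% and 5.67% in control cells and 10.1% and 12.1% in TRCs. *Uhrf1* amounted to 8.54% and 9.28% in control cells and 6.49% and 7.08% in TRCs, without overlap and with a log2 difference of −0.39. *Cdca7* amounted to 1.52% and 1.14% in control cells and 0.591% and 0.787% in TRCs, a log2 difference of −0.95. For *Hells* the groups overlapped, with 5.31% and 3.87% in control cells and 4.19% and 3.47% in TRCs, and *Phf19* overlapped as well. These ratios were chosen after the values were seen and were not tested.

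The promoters of the falling genes were searched for the letters of E2F sites, since E2F factors drive genes of S phase. RefSeq windows from 250 bases before to 50 bases after each start (GRCm38.p6) matched all 10 genes, with up to 3 starts a gene. The letters TTCCCGC or TTGGCGC on either strand were found at 1 start each of *Uhrf1*, *Dnmt1*, *Ezh2* and *Suz12* and at no start of the other 6 genes, and they occur in 6.81% of all 32851 windows and at 1 or more starts of 7.79% of all gene symbols. Both strings of letters hold a CpG. The richest window of each of the 10 genes had 17 to 57 CpG, against a median of 7 over all windows. The shares over all windows and symbols are thus not matched for CpG. *Uhrf1* has 2 starts and *Dnmt1* 3 starts in the table, and the deposited counts do not tell which start was used. The windows of *Cdca7*, *Hells* and *Phf19*, which all fell, also held these letters. Other genes outside the 10 entered only the shares over all windows and symbols. Matches in genes of the lists that rose were not looked at one by one. Among the genes with a match is *Suz12*, which did not fall. The stretches with the matches are shown 5′ to 3′ on the strand of the gene, with the matching letters in capitals, to let the sites be compared between genes that fell and *Suz12*, which did not.
Uhrf1, chr17:56303263-56303322, plus strand: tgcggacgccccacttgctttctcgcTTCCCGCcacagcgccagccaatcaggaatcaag
Dnmt1, chr9:20952574-20952603, minus strand: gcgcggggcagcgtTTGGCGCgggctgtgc
Ezh2, chr6:47595016-47595075, minus strand: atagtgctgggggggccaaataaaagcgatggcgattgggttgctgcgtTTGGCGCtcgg
Hells, chr19:38930903-38930962, plus strand: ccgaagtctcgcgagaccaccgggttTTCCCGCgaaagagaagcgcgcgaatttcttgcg
Cdca7, chr2:72476122-72476181, plus strand: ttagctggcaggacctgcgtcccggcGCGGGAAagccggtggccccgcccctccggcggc
Phf19, chr2:34914151-34914210, minus strand: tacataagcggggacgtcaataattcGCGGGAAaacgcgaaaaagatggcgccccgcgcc
Suz12, chr11:79992862-79992921, plus strand: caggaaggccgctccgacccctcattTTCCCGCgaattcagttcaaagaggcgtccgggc

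The match begins 48 bases before the start in *Uhrf1*, 61 in *Hells*, 71 in *Cdca7*, 208 in *Phf19* and 218 in *Suz12*, and at base 5 from the start in *Ezh2* and base 35 in *Dnmt1*. A match of letters is not a bound site, and binding was not measured in these libraries. The RefSeq start of *Tet1* in the table lies inside the gene model given above, downstream of its annotated 5′ end, which was not searched. The same holds for the starts of *Tet2*, *Tet3* and *Ezh2* and for every start of *Dnmt3a*. This window of *Tet1*, the gene that rose, held no such letters and no ACGTG, the core of sites for hypoxia-inducible factors, which occurs on either strand in 19.6% of all windows and in windows of 4 of the 10 genes, *Dnmt3a*, *Uhrf1*, *Tet2* and *Ezh2*. ACGTG holds a CpG as well, so that its share over all windows is not matched for CpG. The Tet1 window had 17 CpG in its 300 bases against a median of 7 over all windows, while the richest window of each of the other 9 genes had 22 to 57. Its 250 bases before the start are shown with CpG, the site of DNA methylation, in capitals.
Tet1, chr10:62887325-62887574, minus strand: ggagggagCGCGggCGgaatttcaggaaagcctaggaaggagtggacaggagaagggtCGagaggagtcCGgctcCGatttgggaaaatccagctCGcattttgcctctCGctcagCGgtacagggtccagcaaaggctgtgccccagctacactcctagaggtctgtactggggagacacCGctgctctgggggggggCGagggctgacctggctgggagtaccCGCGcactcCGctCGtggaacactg

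Genes of the methyl donor S-adenosylmethionine (SAM) were counted next. Of 12 genes of the methionine and SAM cycle, all tested, 4 fell and 0 rose, against 7.05% and 8.81% of all genes tested. The list's median log2 fold change was −0.33. In edgeR's quasi-likelihood test 1 of the list was called, *Mat2a*, and *Ahcy*, *Mtap* and *Nnmt* were not (FDR 0.0778, 0.0689 and 0.141), and with the replicate block 0 were called. *Mat2a*, which makes SAM, had 527 and 569 CPM in control cells and 348 and 296 CPM in TRCs (log2 fold change −0.77, SE 0.20, FDR = 0.0107). *Ahcy*, which clears the product that inhibits methyltransferases, had a log2 fold change of −0.78 (FDR = 0.0230), and *Mtap*, which salvages methionine, had −0.72 (FDR = 0.0260). The fourth was *Nnmt*, which uses SAM to methylate nicotinamide and whose TRC libraries differed, with 17.6 and 5.10 CPM in control cells and 0.890 and 4.76 CPM in TRCs (FDR = 0.0392, and 0.464 without control replicate 1 and 0.362 without TRC replicate 1). It was named after its values were seen. Without control replicate 3 or without TRC replicate 3 none of *Mat2a*, *Ahcy* and *Mtap* was called, with FDR values of 0.107, 0.433 and 0.354 in the first case and 0.181, 0.165 and 0.122 in the second, and without TRC replicate 1 *Ahcy* and *Mtap* were not called (0.203 and 0.237).

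The readers of DNA methylation and the second Polycomb complex, PRC1, had few calls. Over all genes tested 15.9% were called, 8.81% higher, and the counts of these short lists were not tested against those shares. Of 10 genes for methyl-CpG binding proteins 0 were called in either direction in edgeR's exact test, with log2 fold changes from −0.39 to 0.98 around a median of −0.05, where *Zbtb4* (log2 fold change 0.98) was the 1 gene whose unadjusted p from the exact test was below 0.05 (p = 0.0428) and was chosen after its values were seen. The other tools also called 0, and 1 gene was called without control replicate 1. Of 23 PRC1 genes 1 rose and 22 did not pass the test, with a median of −0.02. This was *Bcorl1*, a corepressor of the variant complex, with 21.4 and 28.8 CPM in control cells and 44.4 and 46.5 CPM in TRCs (log2 fold change 0.86, SE 0.25, FDR = 0.00973, and 0.108, 0.0887 and 0.119 without control replicate 1, TRC replicate 1 and TRC replicate 3). Of 11 tested genes for enzymes that oppose Polycomb, 1 rose with a median of −0.16, and 2 were called without control replicate 1. This was *Kdm6b*, an oxygen-dependent demethylase of H3K27, with 59.4 and 29.98 CPM in control cells and 72.2 and 105 CPM in TRCs (log2 fold change 0.99, SE 0.34, FDR = 0.0167), and its FDR was 0.290 without control replicate 3, 0.318 without TRC replicate 3 and 0.0924 in edgeR's quasi-likelihood test. *Kdm6a*, its X-linked relative, had 56.4 and 77.6 CPM in control cells and 80.0 and 64.6 CPM in TRCs, which overlapped (FDR = 0.821).

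**Figure D5:**
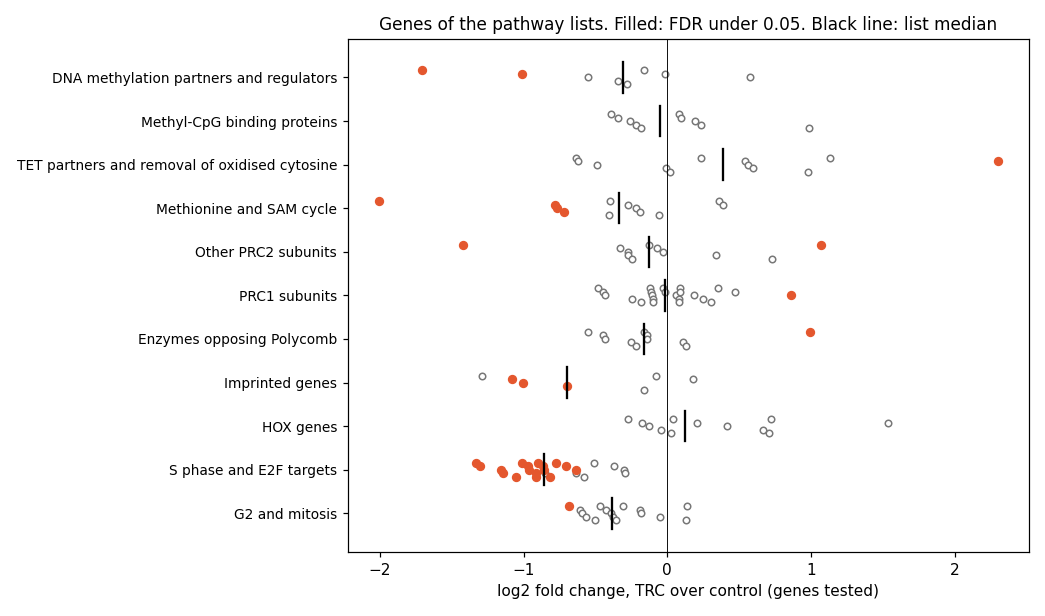
Log2 fold change of TRCs over control cells (x axis) for every tested gene of 11 lists (rows), filled where the FDR is under 0.05, with a black line at each list's median. The S phase list lies wholly below 0, with a median of −0.86, while PRC1 genes and methyl-CpG binding proteins lie around 0.

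Gene groups whose silence rests on these marks were then examined at the RNA level. DNA methylation and H3K27 methylation themselves were not measured here. Of 16 germline genes that DNA methylation silences in somatic cells, 0 passed the filter on low counts, and 13 had at most 3 counts in every library. Their summed level was 2.23 and 1.39 CPM in control cells and 1.73 and 1.78 CPM in TRCs, which overlapped. *Ddx4*, *Brdt* and *Hsf2bp* were the 3 with more than 3 counts in a library, with *Ddx4*, a germ cell helicase gene, at 1.33 and 0.680 CPM in control cells and 0.625 and 0.793 CPM in TRCs, which overlapped. *Brdt*, a bromodomain gene of the testis, had 0.765 and 0.510 CPM in control cells and 0.914 and 0.889 CPM in TRCs, which did not overlap, and neither gene was tested.

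HOX genes are classical targets of Polycomb. Of 38 HOX genes in the files, 14 had 0 counts in all libraries and 12 were tested, of which 0 were called in either direction in edgeR's exact test, 1 in DESeq2's Wald test and 2 at an unadjusted p under 0.05, with a median log2 fold change of 0.12. The exact test called 15.9% of all genes tested. The summed level of the HOX genes was 106 and 89.2 CPM in control cells and 124 CPM in each TRC library. *Hoxa10* came closest among them, with 18.7 and 17.8 CPM in control cells and 29.3 and 31.1 CPM in TRCs (log2 fold change 0.72, FDR = 0.0506). It was called with DESeq2 size factors and in DESeq2's Wald test and was named after its values were seen, as were *Hoxb8*, called where no filter was set, and *Hoxa7* and *Hoxb9*, called without control replicate 1.

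Imprinted genes carry parental DNA methylation that DNMT1 maintains. Of 24 imprinted genes 21 were in the files, 9 had 0 counts in all libraries, and 7 were tested. Of these 3 fell and 0 rose, against 7.05% and 8.81% of all genes tested, with a median log2 fold change of −0.70 in the list. The list had 4 calls without control replicate 1, 2 without TRC replicate 1, 1 without control replicate 3, 0 without TRC replicate 3 and 1 in edgeR's quasi-likelihood test. *Impact*, a regulator of translation, had 56.5 and 53.8 CPM in control cells and 29.9 and 25.0 CPM in TRCs (log2 fold change −1.01, SE 0.22, FDR = 0.000660, and 0.0684 without TRC replicate 3). *Igf2r*, the receptor that clears IGF2, had 308 and 384 CPM in control cells and 205 and 222 CPM in TRCs (log2 fold change −0.70, FDR = 0.0245, and 0.273, 0.228 and 0.122 without control replicate 3, TRC replicate 1 and TRC replicate 3). *Peg10* had 118 and 285 CPM in control cells and 127 and 63.3 CPM in TRCs, so that the groups overlapped although its FDR was 0.0443, and that FDR was 0.739 without control replicate 3, 0.456 without TRC replicate 3 and 0.359 in DESeq2's Wald test.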

How the data were processed

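RNA-seq was analysed in 4 libraries. From stranded libraries the authors processed reads in single-end mode, with Trimmomatic 0.35 for trimming, TopHat2 2.1.0 for alignment (GRCm38) and HTSeq for counting by Ensembl gene. What they deposited are raw counts without normalization. How HTSeq treated strand and overlapping genes is not given in the sources used here. On the opposite strand to members, annotated genes held at most 4 counts. Following the study's methods, genes under 1 CPM in at least 3 samples were removed, TMM factors were computed, and edgeR 4.0.16 under R 4.3.3 ran the exact test with tagwise dispersions and Benjamini-Hochberg adjustment over 11483 genes. SEs came from DESeq2 1.42.0. Rows that are not genes were left out. They held 15.2% to 25.2% of alignments as not unique, 2.95% to 4.25% on no gene and 0.825% to 0.955% ambiguous. Symbols, positions and exon lengths came from GENCODE M21 on GRCm38, a later annotation than the authors used. Named genes were all members, up to 3 genes of each list with the smallest FDR under 0.05, the nearest profiles, and *Mki67*, *Pcna* and *Vegfa*, and others are named where stated or for contrast after their values were seen. The results of 1 gene that this rule names are not reported here. *Vegfa* had a log2 fold change of 2.12 (FDR = 0.00221). In the low oxygen list 13 of 14 genes rose, with a median of 2.11, led by *Bnip3*, *Ankrd37* and *Pdk1* at 5.13, 5.58 and 4.39. The members and lists were chosen with earlier results of these data known. Alternatives changed the filter, normalization, test and library set. Recovery of known changes was checked with counts simulated at a common spread for all genes and a single size of change. That size was larger than the falls of *Uhrf1*, *Dnmt1* and *Ezh2*, so that the check does not cover falls of their size. Plots used matplotlib 3.10.9.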

Additional observations from a re-analysis of the deposited data

Results flagged for a closer look

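The share of alignments that were not unique was higher in both TRC libraries, at 18.3% in replicate 1 and 25.2% in replicate 3, than in the control libraries, at 15.2% and 17.1%. These alignments entered no gene count, and their part in the results was not tested.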

How the results depend on the processing

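The direction of the 9 genes other than *Suz12* was kept in all 11 alternatives. *Suz12*, at −0.0016, had 0.0044 where genes needed at least 1 CPM in at least 3 samples, and −0.13 to 0.12 with 1 library left out. In edgeR's quasi-likelihood test 1054 genes in all and 29 genes of the lists were called, and *Dnmt1* was not (log2 fold change −0.71, FDR = 0.0751). With the replicate block 785 genes in all, 26 of the lists and 2 of the 10 genes were called, *Uhrf1* and *Tet1*, with −0.70 for *Dnmt1* (FDR = 0.0859) and −0.68 for *Ezh2* (FDR = 0.0582). The numbers are not stated to mark shared cultures, and across genes the departures of libraries 1 and 3 from the mean of their group had a correlation of r = 0.0267 between the groups, so they were not taken as pairs. With 1 library left out, where the lone library of a group is assumed to vary like the other group, 773 to 1932 genes were called in all against 1822, 26 to 60 of the lists (47 with all libraries) and 1 to 4 of the 10 genes. The 10 genes then had −0.92 to −0.47 for *Dnmt1*, −1.53 to −0.78 for *Uhrf1*, −0.73 to −0.63 for *Ezh2* and 1.302 to 2.73 for *Tet1*. The causes of these changes were not tested. Depth limits the germline and HOX genes, of which 13 and 18 had at most 3 counts in every library.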
